A study of Homo sapiens with 5 samples.

Results

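The 10 genes described here are the BCL2 family regulators of mitochondrial apoptosis, chosen by name as 5 anti-apoptotic genes (BCL2, BCL2A1, BCL2L1, BCL2L2 and MCL1), 2 effectors (BAX and BAK1) and 3 BH3-only genes (BCL2L11, PMAIP1 and BBC3). All 10 were found among the 31029 genes listed for both cell lines. RNA-seq was available for 5 libraries, 2 of 501Mel cells and 3 of Hermes 3A cells, each after infection with a lentivirus expressing an shRNA against BPTF (shBPTF) and 5 days of selection in 3 µg/ml puromycin. The study used 2 shBPTF constructs, and the labels do not say which of them each library carried. BPTF is the largest subunit of the NURF chromatin remodelling complex. 501Mel is an established human melanoma line that expresses the lineage transcription factor MITF, and Hermes 3A is an established line of immortalised, untransformed human melanocytes. 501Mel cells were grown in RPMI with foetal calf serum, and Hermes 3A cells in the same medium with TPA, cholera toxin, human stem cell factor and endothelin-1, so that line and culture medium cannot be told apart. The shControl libraries were not analysed here. All 5 libraries carried shBPTF, and the values below therefore describe the family in the 2 lines after shBPTF and not the effect of shBPTF.

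BCL2 family proteins decide whether the outer mitochondrial membrane stays intact. BAX and BAK1, once active, form pores that release cytochrome c into the cytosol, where it starts the caspase cascade. The anti-apoptotic proteins hold BAX, BAK1 and the BH3-only proteins in check, and the BH3-only proteins are induced or activated by stress and either neutralise the anti-apoptotic proteins or activate the effectors directly. In the melanocyte lineage BCL2 and BCL2A1 are known targets of MITF, a bHLH-leucine zipper factor that binds E-box and M-box sequences.

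Because MITF binds E-boxes, the RefSeq promoter windows of the members (GRCh38.p14, 250 bases before to 50 bases after each annotated start) were searched on both strands for the words CACGTG and CATGTG. Windows were matched for 8 of the 10 members, with BCL2L2 and MCL1 unmatched. Among the 35116 windows of all genes, 7.26% held CACGTG, 11.1% held CATGTG on either strand and 17.6% held either word. The 8 matched members had 9 windows, since BCL2L1 had more than 1. Of these 9 windows, 3 held either word, each from a different member. BAX held 4 copies of CACGTG, at -138, -93, -45 and -14 bases from its start, a number reached in 5 of the 35116 windows (0.0142%). This cut-off was taken from BAX itself, so that the share is a description and not a test. BBC3 held 1 CACGTG at -232 and BCL2A1 held 1 CATGTG at -25. These letters are a description and not sites shown to be bound. The stretches are shown for these 3 genes because they held either word. Capitals mark the E-box words. For BAX and BBC3 the part of the window before any GENCODE exon is given, chr19:48954625-48954814 on the plus strand and chr19:47232767-47232917 on the minus strand. These stretches hold 2 of the 4 words of BAX and the word of BBC3. The words of BAX at -45 and -14 and the word of BCL2A1 lay inside a GENCODE exon and are given with the bases beside them, at chr19:48954820-48954845 and chr19:48954851-48954874 on the plus strand and chr15:79971206-79971231 on the minus strand.
BAX: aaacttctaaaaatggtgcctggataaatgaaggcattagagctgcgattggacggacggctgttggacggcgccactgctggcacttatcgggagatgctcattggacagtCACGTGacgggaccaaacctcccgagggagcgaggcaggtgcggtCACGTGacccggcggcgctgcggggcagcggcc
BAX at -45: gcggggcggcCACGTGaaggacgcac
BAX at -14: gcggggctctCACGTGacccgggc
BBC3: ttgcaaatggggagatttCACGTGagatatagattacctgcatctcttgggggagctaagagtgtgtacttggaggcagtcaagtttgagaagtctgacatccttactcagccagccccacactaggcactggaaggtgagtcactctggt
BCL2A1: catgtatcatCATGTGtcataactca

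Read counts per gene were deposited without normalization, and the libraries held 43032311 and 37856675 counts for 501Mel and 30073071 to 41653084 for Hermes 3A. Values are given as CPM, in which the counts of a library are divided by its total and set to a common scale, and 3 counts correspond to 0.0697 to 0.0998 CPM. Hermes 3A replicate 1 stood apart from the other Hermes 3A replicates, with a median absolute difference of 0.242 and 0.256 on the log2 CPM scale against 0.137 between replicates 2 and 3. The labels do not say whether replicates were separate cultures, so that the spread between them may be technical. Mitochondrial genome genes took 6.14% and 6.74% of the counts in 501Mel and 2.74% to 3.25% in Hermes 3A. The targeted gene BPTF had 65.8 and 57.8 CPM in 501Mel and 45.8, 51.6 and 54.1 CPM in Hermes 3A, which does not check the knockdown without shControl libraries. All 7 melanocyte lineage markers had counts in every library, with MITF at 702 and 854 CPM in 501Mel and 643 to 678 CPM in Hermes 3A. SOX10, TYR, PMEL and MLANA were lower in 501Mel, with log2 fold changes of -0.68, -0.91, -1.39 and -1.22 (adjusted p = 0.00681, 0.0248, 0.0149 and 0.023, edgeR), the direction of most members described below, and their part in those results was not tested. DCT, an enzyme of melanin synthesis, was low in Hermes 3A, at 7.37 to 13.1 CPM against 1068 and 1300 CPM in 501Mel. Of 5 fibroblast markers the summed level was 16.5 and 3.33 CPM in 501Mel and 1.83 to 8.19 CPM in Hermes 3A. Of 4 immune markers 3 were at 3 counts or fewer or not listed, as were 1 of 2 endothelial and 3 of 4 keratinocyte markers. The remaining keratinocyte marker, KRT10, had 32.6 and 34.1 CPM in 501Mel and 43.2 to 47.4 CPM in Hermes 3A (log2 fold change -0.49, adjusted p = 0.0357, edgeR), and its part in the results was not tested.

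The family was expressed at a lower level in 501Mel than in Hermes 3A for most members. Of the 10 members, 6 were lower in 501Mel at an adjusted p of 0.05 in edgeR's quasi-likelihood test, namely BCL2, BCL2A1, BCL2L1, BCL2L2, BAX and BBC3, where 24.0% of all 17975 genes tested were lower. No member was higher in 501Mel by that test (24.2% of all genes were), although at an unadjusted p under 0.05, and with DESeq2, 1 member (PMAIP1) was higher. The remaining members, MCL1, BAK1, BCL2L11 and PMAIP1, did not pass the test. In either direction 6 of 10 members were called against 48.2% of all genes tested. The members' median log2 fold change (501Mel over Hermes 3A) was -0.62, beside 0.02 over all genes tested. With a 2-fold difference also required, 3 members (BCL2A1, BBC3 and BAX) were called, all lower in 501Mel, against 34.3% of all genes in either direction. The CPM of the lines did not overlap for 8 members, as for 69.8% of all genes tested. Of these 8, 6 were lower in 501Mel (31.9% of all genes) and 2 were higher (37.9% of all genes). In such bulk samples, fewer cells that contain a transcript and fewer transcripts per cell cannot be told apart.

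**Figure D1:**
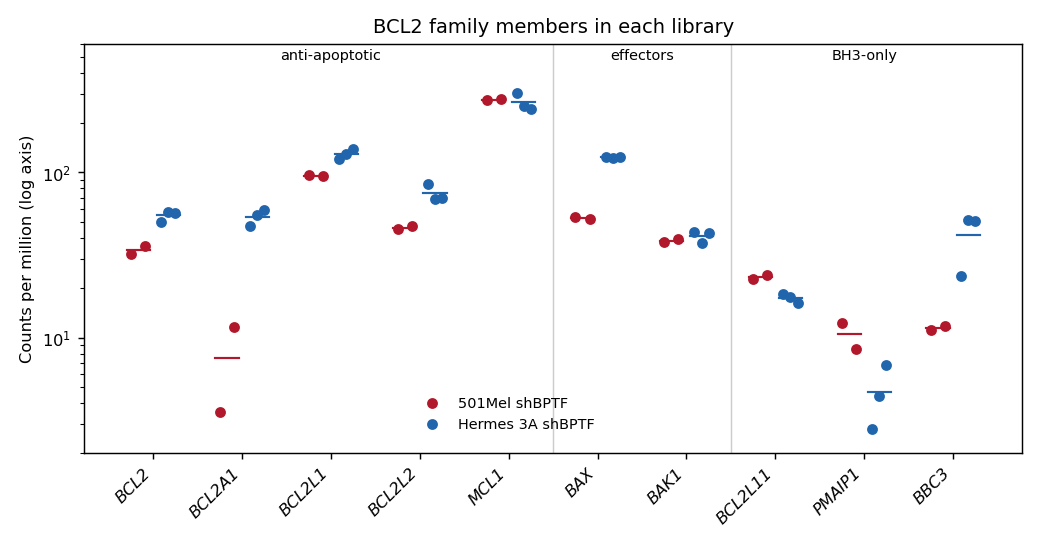
CPM (log axis) of each of the 10 members in the 2 libraries of 501Mel (red) and the 3 of Hermes 3A (blue) after shBPTF; points are libraries, horizontal lines are means. BAX and BCL2A1 lie apart between the lines, MCL1 and BAK1 overlap, and the 501Mel points of BCL2A1 (3.53 and 11.6 CPM) are far from each other.

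The anti-apoptotic genes held the member with the largest difference. BCL2A1 (ENSG00000140379, chromosome 15 of GRCh38 from 79960889 to 79971446, minus strand) encodes BFL-1, a small anti-apoptotic protein. It had 3.53 and 11.6 CPM in 501Mel (152 and 439 counts) and 47.1, 55.2 and 59.5 CPM in Hermes 3A (1963, 2255 and 1789 counts). All 3 Hermes 3A libraries lay above both 501Mel libraries, while the 501Mel replicates differed 3.28-fold from each other, the widest replicate spread of any member. The difference was -2.89 on the log2 scale (SE 0.481), a 7.41-fold lower level in 501Mel (adjusted p = 0.00277, edgeR quasi-likelihood test). The size rested on which 501Mel library was used. Without 501Mel replicate 1 it was -2.26 and without replicate 2 it was -4.02, both still called. 501Mel replicate 1, the lower of these libraries, was also the one with 16.5 CPM of fibroblast markers, and the part of this in the result was not tested. The study lists BCL2A1 among the genes lowered in 501Mel by both MITF and BPTF silencing. The part of that response in the difference between the lines was not tested.

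The founding member BCL2 (ENSG00000171791, chromosome 18 from 63123346 to 63320128, minus strand) had 32.1 and 35.8 CPM in 501Mel and 50.1, 57.8 and 57.0 CPM in Hermes 3A. The groups did not overlap, and replicates differed at most 1.16-fold. Its log2 fold change was -0.75 (SE 0.146, adjusted p = 0.00512, edgeR), or 1.69-fold lower in 501Mel. BCL2 remained called in each of the 11 alternative fits, with an adjusted p of at most 0.0363.

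BCL2L1 (ENSG00000171552, chromosome 20 from 31664452 to 31723989, minus strand) encodes BCL-XL and, by an alternative splice site, the pro-apoptotic BCL-XS, which counts per gene do not separate. It had 95.9 and 95.7 CPM in 501Mel and 120, 129 and 139 CPM in Hermes 3A. The 501Mel replicates were nearly equal and both lay below every Hermes 3A library. The log2 fold change was -0.50 (SE 0.13, adjusted p = 0.0169, edgeR), the smallest of the called differences. This call was lost without 501Mel replicate 1 (adjusted p = 0.0802), without 501Mel replicate 2 (0.0629) and without Hermes 3A replicate 3 (0.0572), with fold changes from -0.52 to -0.49. The antisense gene ABALON overlaps 43.0% of its exon length, and since the counting is not stated to use strand, its reads could have been counted here.

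BCL2L2 (ENSG00000129473, chromosome 14 from 23298790 to 23311759, plus strand) encodes the anti-apoptotic protein BCL-W. It had 45.3 and 47.4 CPM in 501Mel and 85.1, 69.4 and 69.8 CPM in Hermes 3A, with Hermes 3A replicate 1 highest and no overlap between the lines. The log2 fold change was -0.76 (SE 0.17, adjusted p = 0.00927, edgeR). The call was lost without 501Mel replicate 1, at a fold change of -0.71 and an adjusted p of 0.0571. The readthrough gene BCL2L2-PABPN1 shares 19.4% of its exon length on the same strand and held 11 to 31 counts per library, so that the assignment of reads between these genes is uncertain. BCL2L2 also overlaps PPP1R3E on the opposite strand over 4.92% of its exon length.

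MCL1 (ENSG00000143384, chromosome 1 from 150574551 to 150579738, minus strand), a short-lived anti-apoptotic protein with rapid turnover, was the exception among these genes. It had 275 and 278 CPM in 501Mel and 303, 253 and 244 CPM in Hermes 3A. The 501Mel values fell inside the Hermes 3A range. The log2 fold change was -0.01 with a 95% interval from -0.41 to 0.38 (adjusted p = 0.952, edgeR), so that these libraries allow a difference of that size in either direction. MCL1 also has splice forms of opposite function that counts per gene do not separate.

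**Figure D2:**
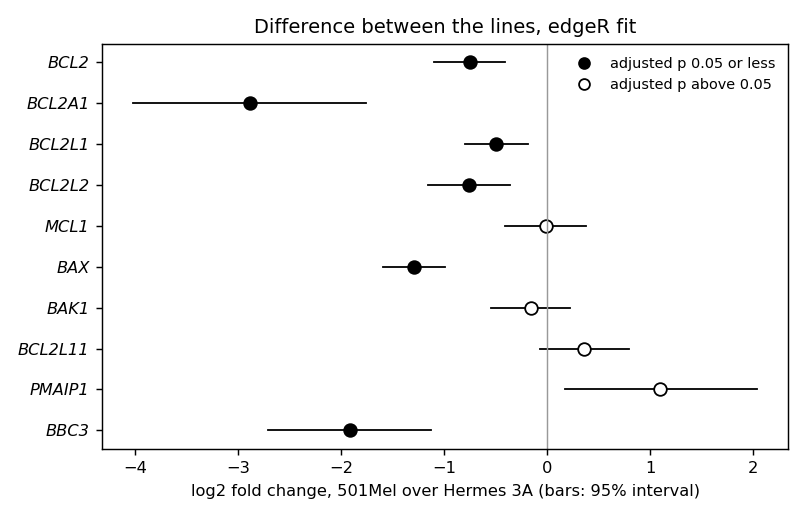
log2 fold change of each member, 501Mel over Hermes 3A after shBPTF, from the edgeR fit over 17975 genes with its 95% interval (n = 2 and 3 libraries); filled points have an adjusted p of 0.05 or less. The 6 filled points are all below 0, from -2.89 (BCL2A1) to -0.50 (BCL2L1), and the open points of MCL1, BAK1 and BCL2L11 have intervals that include 0.

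Of the effectors, BAX differed between the lines and BAK1 did not pass the test. BAX (ENSG00000087088, chromosome 19 from 48954815 to 48961798, plus strand), the cytosolic pore-forming protein, had 53.5 and 52.1 CPM in 501Mel and 125, 123 and 124 CPM in Hermes 3A. It was among the most reproducible members, with replicates within 1.03-fold of each other in both lines. BAX was 2.45-fold lower in 501Mel, with a log2 fold change of -1.29 (SE 0.131, adjusted p = 0.000358, edgeR), and it was called in all 11 alternative fits with values from -1.38 to -1.22. BAK1 (ENSG00000030110, chromosome 6 from 33572547 to 33580293, minus strand), the effector that resides in the outer mitochondrial membrane, had 37.7 and 39.3 CPM in 501Mel and 43.5, 37.2 and 42.9 CPM in Hermes 3A. The lines overlapped, and the log2 fold change was -0.16 with a 95% interval from -0.55 to 0.22 (adjusted p = 0.44, edgeR). The ratio of BAX to BAK1, each per kb of exon length, was 1.21 and 1.13 in 501Mel and 2.45, 2.83 and 2.47 in Hermes 3A. These ratios did not overlap between the lines.

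The BH3-only genes were not ordered alike between the lines. BBC3 (ENSG00000105327, chromosome 19 from 47220822 to 47232766, minus strand) encodes PUMA, a target of p53 that binds all anti-apoptotic members. It had 11.1 and 11.8 CPM in 501Mel and 23.5, 51.2 and 50.7 CPM in Hermes 3A. Hermes 3A replicate 1 had less BBC3 than replicates 2 and 3, a 2.18-fold spread, and still lay above both 501Mel libraries. The log2 fold change was -1.92 (SE 0.336, adjusted p = 0.00342, edgeR), or 3.77-fold lower in 501Mel, and it was -2.20 without Hermes 3A replicate 1. BBC3 was called in all 11 alternative fits. The microRNA genes MIR3190 and MIR3191 overlap 2.52% and 2.39% of its exon length.

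PMAIP1 (ENSG00000141682, chromosome 18 from 59899948 to 59904306, plus strand) encodes NOXA, which binds mainly MCL1 and BFL-1. Its order was opposite to that of BBC3, with 12.3 and 8.56 CPM in 501Mel and 2.79, 4.43 and 6.82 CPM in Hermes 3A. The lines did not overlap, but the Hermes 3A replicates spread 2.45-fold. The log2 fold change was 1.10 (SE 0.397, 95% interval from 0.17 to 2.04), and it missed the threshold in edgeR's test (adjusted p = 0.0536). The call depended on the fit. PMAIP1 was called higher in 501Mel without Hermes 3A replicate 3 (log2 fold change 1.43, adjusted p = 0.0316), with DESeq2 (adjusted p = 0.0219) and with all genes of at least 1 count tested by edgeR (adjusted p = 0.0351), while without 501Mel replicate 1 the adjusted p was 0.238.

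BCL2L11 (ENSG00000153094, chromosome 2 from 111119378 to 111168447, plus strand) encodes BIM, a BH3-only protein with several splice forms that binds all anti-apoptotic members and activates BAX. It had 22.8 and 24.0 CPM in 501Mel and 18.5, 17.6 and 16.2 CPM in Hermes 3A. Both 501Mel libraries were above the Hermes 3A libraries, with a log2 fold change of 0.36 and a 95% interval from -0.07 to 0.79 that did not pass the test (adjusted p = 0.139, edgeR). It was not called in any of the 11 alternative fits, where the adjusted p ranged from 0.0775 to 0.407. The long noncoding gene MIR4435-2HG overlaps 10.9% of its exon length on the opposite strand and had 766 to 1191 counts per library. The ratio of BBC3 to PMAIP1 per kb of exon length was 0.633 and 0.972 in 501Mel and 5.93, 8.12 and 5.23 in Hermes 3A.

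Levels of different members can be compared only per length, and here CPM were divided by the summed exon length of each gene in kb, as a description without a test. Length alone does not make them comparable, since the libraries were normalized with duplex-specific nuclease, which can lower the share of abundant transcripts. Its part in these levels, shares and ratios was not tested. In 501Mel the order was MCL1 (63.2 ± 0.475 CPM per kb, SD, n = 2), BCL2L1 (28.9 ± 0.0275), BAX (20.4 ± 0.357), BAK1 (17.4 ± 0.501), BCL2L2 (11.1 ± 0.35), BCL2A1 (6.95 ± 5.24), PMAIP1 (4.67 ± 1.19), BBC3 (3.60 ± 0.167), BCL2L11 (3.52 ± 0.134) and BCL2 (2.89 ± 0.223). The libraries of BCL2A1 overlapped those of PMAIP1, and those of BBC3 overlapped BCL2L11, while the other neighbours were separate. In Hermes 3A the order was MCL1 (61.0 ± 7.26 CPM per kb, SD, n = 3), BCL2A1 (49.5 ± 5.76), BAX (47.9 ± 0.279), BCL2L1 (39.1 ± 2.85), BAK1 (18.6 ± 1.57), BCL2L2 (17.9 ± 2.14), BBC3 (13.1 ± 4.99), BCL2 (4.67 ± 0.361), BCL2L11 (2.62 ± 0.172) and PMAIP1 (2.09 ± 0.907). BCL2A1 and BAX overlapped, as did BAK1 and BCL2L2, and BCL2L11 and PMAIP1. By these means BCL2A1 stood at place 6 in 501Mel and place 2 in Hermes 3A. Library by library its place was 9 and 6 in 501Mel and 3, 2 and 2 in Hermes 3A.

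Summed over the 5 anti-apoptotic members, the level was 109 and 118 CPM per kb in 501Mel and 174, 169 and 174 CPM per kb in Hermes 3A. MCL1 made up 57.9% and 54.1% of this sum in 501Mel and 39.9%, 34.3% and 32.1% in Hermes 3A, although its own CPM overlapped between the lines. BCL2A1 made up 2.99% and 9.07% of the sum in 501Mel and 24.9%, 30.0% and 31.4% in Hermes 3A. The share of BCL2L1 was 26.6% and 24.6% in 501Mel and 20.9% to 24.2% in Hermes 3A. BCL2 took 2.51% and 2.59% in 501Mel and 2.45% to 2.91% in Hermes 3A, the smallest share in both lines with this length. The sum for the effectors BAX and BAK1 was 37.7 and 37.9 CPM per kb in 501Mel and 64.4 to 67.8 CPM per kb in Hermes 3A. The ratio of BAX to BCL2L1 per kb was 0.714 and 0.698 in 501Mel and 1.33, 1.22 and 1.14 in Hermes 3A.

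These orders rested on the gene length used. With the median length of the coding transcripts in place of the summed exons, MCL1 stood in the 4th place in both lines, and its mean share of the anti-apoptotic sum was 27.5% in 501Mel and 17.7% in Hermes 3A. With the longest coding transcript its share was 53.4% and 34.3%. MCL1 then stood at place 1 in each 501Mel library and at place 2, behind BAX, in each Hermes 3A library. BCL2A1 stood at places 10 and 7 in the 501Mel libraries and at place 5 in each Hermes 3A library with the median length. In 501Mel replicate 1 its share was below that of BCL2, at 1.42% against 2.37% with the median length and 2.69% against 3.39% with the longest. In the other libraries BCL2 kept the smallest share with each length. The ratio of BAX to BAK1 was 5.60 and 5.25 in 501Mel and 11.3 to 13.1 in Hermes 3A with the median length, and 2.31 and 2.16 against 4.67 to 5.39 with the longest. The ratio of BAX to BCL2L1 in 501Mel was 0.944 and 0.922 with the median length, and 1.07 and 1.05, above 1, with the longest. Both ratios were lower in 501Mel than in Hermes 3A with each of the lengths. This had to be so, since another length scales such a ratio by the same factor in every library. The share of MCL1 was higher, and that of BCL2A1 lower, in 501Mel than in Hermes 3A with all 3 lengths. These directions had to hold with any lengths too. Relative to MCL1, each other anti-apoptotic member was lower in both 501Mel libraries than in every Hermes 3A library. The same was so for BCL2A1 relative to each other anti-apoptotic member.

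**Figure D3:**
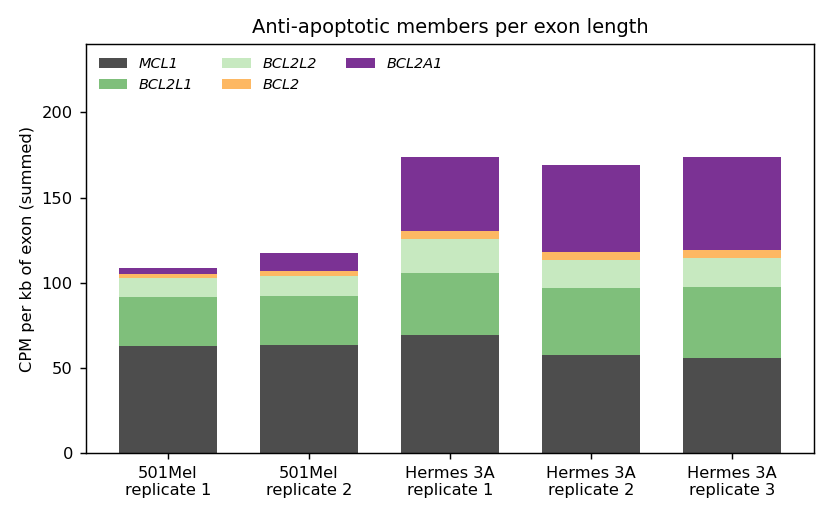
CPM per kb of summed exon length of the 5 anti-apoptotic members, stacked, in each of the 5 shBPTF libraries. The MCL1 segment is of similar height in all libraries (55.8 to 69.3 CPM per kb), while the BCL2A1 segment is 3.24 and 10.7 in 501Mel and 43.3 to 54.6 CPM per kb in Hermes 3A.

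For the members with the largest differences, the genes with the most similar pattern were sought, as the smallest Euclidean distance between centred log2 CPM over the 5 libraries. For BCL2A1 these were MARVELD1 (distance 0.263 on the log2 scale), STAC (0.342) and PSMB8 (0.402). STAC was low, at 0.139 and 0.449 CPM in 501Mel and 2.2, 2.8 and 3.4 CPM in Hermes 3A. Its pattern in 501Mel therefore rests on few counts. MARVELD1 had 23.3 and 65.0 CPM in 501Mel and 267, 332 and 303 CPM in Hermes 3A, and PSMB8, an immunoproteasome subunit, had 5.72 and 14.3 CPM and 77.6, 98.5 and 92.8 CPM. In each of these genes 501Mel replicate 1 was the lowest library, as for BCL2A1. For BBC3 the nearest were MXD4 (0.169), LINC00957 (0.179) and EXOC3L1 (0.207). MXD4, which encodes a partner of MAX, had 32.4 and 39.5 CPM in 501Mel and 69.9, 147 and 151 CPM in Hermes 3A, with Hermes 3A replicate 1 low among the Hermes 3A libraries as for BBC3. Nearness over 5 libraries of 2 lines is a description, since many genes differ between the lines. These genes were chosen by their pattern over the same libraries, so that sharing a low library with BCL2A1 or BBC3 follows from that choice.

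Among the rest of the BCL2 family, each gene that was called was lower in 501Mel. Of 13 further family genes, 11 were tested and 6 were lower in 501Mel, with none higher by edgeR (1 higher at an unadjusted p under 0.05, and 1 with DESeq2) and a median log2 fold change of -0.88, where 24.0% of all genes tested were lower. HRK, a BH3-only gene, had 5.74 and 8.24 CPM in 501Mel and 17.1, 32.5 and 39.0 CPM in Hermes 3A, a log2 fold change of -2.13 (adjusted p = 0.00347, edgeR). BOK, a relative of BAX and BAK1, had 7.30 and 4.28 CPM in 501Mel and 13.1, 25.2 and 30.8 CPM in Hermes 3A, a log2 fold change of -2.04 (adjusted p = 0.00567, edgeR). For both genes Hermes 3A replicate 1 was the lowest of its line, as it was for BBC3. BNIP3, a receptor for mitophagy, and the BH3-only gene BMF were also lower in 501Mel, with log2 fold changes of -1.12 and -1.09 (adjusted p = 0.00351 and 0.0138, edgeR).

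Of 13 genes of the apoptosome and the caspases, 2 were higher and 1 lower in 501Mel, against 48.2% of all genes called in either direction, with a median log2 fold change of 0.11. CASP8, the initiator caspase of the death receptor pathway, was higher in 501Mel, with a log2 fold change of 0.61 (adjusted p = 0.0389, edgeR). ENDOG, a mitochondrial nuclease, was lower in 501Mel, with a log2 fold change of -1.78 and 5.30 and 5.97 CPM in 501Mel and 17.3 to 20.0 CPM in Hermes 3A (adjusted p = 0.000885, edgeR). Of 3 VDAC genes of the outer mitochondrial membrane none was called by edgeR or DESeq2, with 2 lower in 501Mel at an unadjusted p under 0.05. Of 5 genes that act on MCL1 turnover, 1 was called. HUWE1, the ubiquitin ligase also known as MULE, was higher in 501Mel by 0.56 on the log2 scale (adjusted p = 0.0135, edgeR).

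The death receptor genes, which feed the extrinsic pathway into BID and the BCL2 family, included FAS, the gene with the largest difference on any of these lists. Of 8 genes, 6 were lower in 501Mel, none was higher by edgeR, by DESeq2 or at an unadjusted p under 0.05, and the median log2 fold change was -1.49, where 24.0% of all genes tested were lower and 24.2% higher. TNFRSF10A had no more than 3 counts in either 501Mel library and passed the filter on low counts only through Hermes 3A. Without it 5 of 7 genes were lower, with a median of -1.38. FAS, the receptor for FAS ligand, had 16 and 13 counts in 501Mel and 2056, 2353 and 1945 counts in Hermes 3A, that is 0.372 and 0.343 CPM against 49.4, 57.6 and 64.7 CPM. This is a log2 fold change of -7.37 (SE 0.25, adjusted p = 8.17e-06, edgeR). TNFRSF10A, a receptor for TRAIL, had 2 and 3 counts in 501Mel and 184, 144 and 93 counts in Hermes 3A, a ratio of CPM of 60.5 with a counting interval of 25.7 to 187 (95%, exact, counting error only). TRADD, an adaptor of the TNF receptor, and TNFRSF10B, the other TRAIL receptor with a death domain, were lower in 501Mel, with log2 fold changes of -1.66 and -1.61 (adjusted p = 0.000799 and 0.00154, edgeR).

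Of 13 transcription factors that act on the family, 2 were higher and 4 lower in 501Mel, a share near the 48.2% of all genes called in either direction. TP73, a relative of p53, had 10.9 and 6.58 CPM in 501Mel and 0.367 to 0.499 CPM in Hermes 3A, a log2 fold change of 4.21 (adjusted p = 0.000267, edgeR). E2F1, a factor of the cell cycle, was higher by 2.93 (adjusted p = 0.0031), while JUN and FOXO1 were lower, with log2 fold changes of -2.36 and -2.04 (adjusted p = 0.000966 and 0.00246, edgeR). MITF itself did not pass the test between the lines (log2 fold change 0.17, 95% interval from -0.22 to 0.55, adjusted p = 0.429, edgeR).

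**Figure D4:**
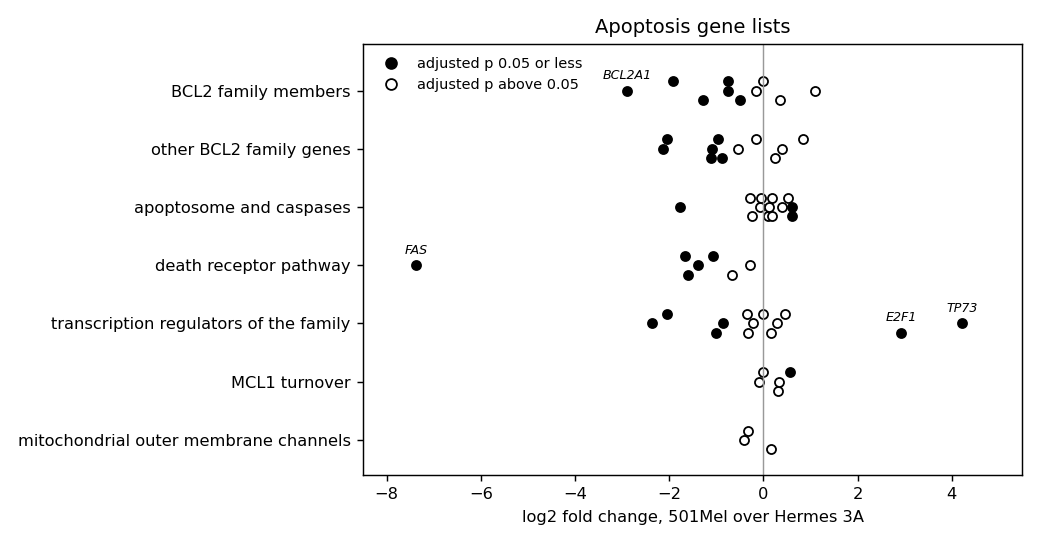
log2 fold change, 501Mel over Hermes 3A after shBPTF, of the 10 members and of 6 further gene lists, one point per gene tested except TNFRSF10A, which had 5 counts in 501Mel in all, spread vertically for clarity; filled points have an adjusted p of 0.05 or less in edgeR's test. FAS (-7.37) lies far to the left, TP73 (4.21) and E2F1 (2.93) to the right, and the medians are -0.62 for the members, -1.38 for the death receptor genes plotted and 0.11 for the apoptosome and caspases.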

How the data were processed

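Human 501Mel (n = 2) and Hermes 3A (n = 3) shBPTF cells were profiled by RNA-seq of total RNA depleted of rRNA. Libraries were normalized with duplex-specific nuclease, which can lower the share of abundant transcripts. The authors deposited raw counts per Ensembl gene as whole numbers. The submitters' processing notes name CASAVA 1.8, TopHat 1.4.1, Bowtie 0.12.7 and the build hg19, whereas the counting program, the strand setting and the annotation are not given in the sources used here. The tables list 37259 genes for 501Mel and 34033 for Hermes 3A. The 31029 genes listed for both were used, the remainder holding at most 0.712% of a library's counts. Coordinates, exon lengths and symbols are those of GENCODE 29 on GRCh38, not of the authors' build.

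Groups follow the labels. The lines were compared with edgeR 4.0.16 (filterByExpr, TMM, glmQLFit and glmQLFTest, R 4.3.3), with Benjamini-Hochberg adjustment over 17975 genes. SE is the fold change divided by the root of F. DESeq2 1.42.0, other scalings, other filters, the replicate block and leaving out each library were alternatives. The members and gene lists were chosen with earlier results of these data known. Named genes are the 10 members, BPTF, up to 4 called genes per other list by size of change, and the 3 genes nearest to each of the 2 members with the largest change. A called gene of the apoptosome and caspase list is not reported here by name. E-box words were searched in RefSeq promoter windows.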

Additional observations from a re-analysis of the deposited data

How the results depend on the processing

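Over 12 alternatives, BCL2, BCL2A1, BAX and BBC3 kept direction and call, except that BCL2 did not reach the 2-fold rule. The fold change of MCL1, never called, turned to 0.06 with total counts only, to 0.00 without 501Mel replicate 1 and to 0.10 without Hermes 3A replicate 1, with -0.13 to 0.10 over the libraries left out. The number of members lower in 501Mel (6) was 3 with the 2-fold rule, and the number higher (0) was 1 with DESeq2, with a filter of at least 1 count and with the replicate block. Leaving out each library, where a lone 501Mel sample is taken to vary like the Hermes 3A samples, gave 4 to 6 members lower and 0 to 1 higher. Of the other lists' genes together, 5 were higher (2 with the 2-fold rule, 2 to 7 leaving out each library, with 2 without 501Mel replicate 1 or Hermes 3A replicate 2, and 3 without 501Mel replicate 2 or Hermes 3A replicate 3) and 17 lower (14 to 17). Over all genes, 4354 were higher (2864 to 4595 leaving out each library, the lowest without 501Mel replicate 1) and 4315 lower (3195 to 4687). The share of MCL1 in the anti-apoptotic sum was 27.5% in 501Mel and 17.7% in Hermes 3A with median transcript lengths, and 54.1% to 57.9% and 33.2% to 37.1% leaving out each library. Testing genes of either line and the other scalings changed no member's call. The former, and the longest transcript lengths, were chosen after seeing the data.

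The replicate numbers 1 and 2 occur in both lines, but nothing in the labels pairs them. The deviations of libraries of the same number correlated at 0.109 and 0.149, with 2 pairs. In the fit blocked by replicate, 3627 genes were higher and 3834 lower, 5 members were lower and 1 higher, BCL2L1 had an adjusted p of 0.0766 and PMAIP1 of 0.0269, and of the other lists' genes 4 were higher and 16 lower. With 2 and 3 libraries a missed threshold does not show that levels are alike, and low genes such as TNFRSF10A in 501Mel are limited by counting error.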
